A study of Mus musculus with 6 samples.

Results

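The bZIP transcription factor *Atf3* and 9 genes whose proteins can pair with it or belong to the same immediate-early response (*Atf1*, *Atf2*, *Atf7*, *Jun*, *Junb*, *Jund*, *Fos*, *Fosb* and *Fosl2*) were examined in cardiomyocyte areas of mouse hearts with high or low Atf3 protein. Of these 10 genes, 9 were among the 17145 genes of the deposited table, and *Fosb* had no row there and was not analysed here. The genes were chosen by name, with the UMI counts of these libraries and their differences between the groups already known, and the groups themselves were selected on staining for Atf3 protein, so that the differences of the 10 genes are given as a description, and the calls of the fit across all genes are counted once for them, beside the share over all genes, with nothing read from them. All libraries came from Ndufs6 knockdown (FS6KD) hearts, in which a gene trap lowers a subunit of respiratory complex I mainly in the heart, were of mixed genetic background and were labelled as female, with 3 Atf3 high and 3 Atf3 low libraries. By the study's methods, areas of frozen sections were irradiated after immunostaining for Atf3 and only cDNA from those areas was amplified (photo-isolation chemistry), and both groups lay within Atf3-positive clusters, so that Atf3 low is not an Atf3-negative control. The study shows Atf3-positive clusters in its early-stage mice, but the age behind these libraries, and whether a heart gave both a high and a low library, were not given in the sources used here. No wild-type heart was among the samples.

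The proteins of this family bind DNA as pairs held together by a leucine zipper. Jun proteins pair with Fos proteins to form the factor AP-1, or with ATF proteins to bind the related cAMP response element (CRE). Atf3 can pair with Jun proteins, with some ATF proteins or with itself. Many of these genes, *Atf3*, *Jun* and *Fos* among them, are switched on within minutes of stress or growth signals and their RNAs are short-lived, whereas *Atf2*, *Atf7* and *Atf1* are present at rest and are controlled largely by phosphorylation. In the heart, *Atf3* is known as a stress-induced factor that can repress or activate its targets.

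The promoter windows of *Atf3*, of *Jun*, whose CRE variant is a well-known site of Jun and Atf2 pairs, and of *Atf2*, the gene with the widest difference between the groups, are shown because these proteins act on such elements. The sequences are from RefSeq (GRCm38.p6) and run 5′ to 3′ along the gene from 250 bases before the start to 50 bases after it. *Atf3* is on the minus strand at chr1:191183284-191183583, *Jun* on the minus strand at chr4:95052173-95052472 and *Atf2* on the minus strand at chr2:73892590-73892889. The *Atf3* window is that of the shorter annotated transcript and lies inside the span of the gene, whose longer transcript starts upstream. Capitals mark letters that match a searched motif.
Atf3: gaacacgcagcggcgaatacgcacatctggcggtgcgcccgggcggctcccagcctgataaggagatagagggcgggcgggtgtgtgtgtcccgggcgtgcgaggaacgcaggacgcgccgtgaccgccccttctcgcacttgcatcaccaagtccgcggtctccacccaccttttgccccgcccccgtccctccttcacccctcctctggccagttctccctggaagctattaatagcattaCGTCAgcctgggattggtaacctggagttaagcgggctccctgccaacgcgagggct
Jun: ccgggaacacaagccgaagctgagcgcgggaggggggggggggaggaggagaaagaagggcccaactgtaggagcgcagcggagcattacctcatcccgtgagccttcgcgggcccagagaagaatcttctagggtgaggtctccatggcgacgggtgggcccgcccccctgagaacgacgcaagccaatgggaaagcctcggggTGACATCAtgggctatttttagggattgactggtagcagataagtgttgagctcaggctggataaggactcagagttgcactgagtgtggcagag
Atf2: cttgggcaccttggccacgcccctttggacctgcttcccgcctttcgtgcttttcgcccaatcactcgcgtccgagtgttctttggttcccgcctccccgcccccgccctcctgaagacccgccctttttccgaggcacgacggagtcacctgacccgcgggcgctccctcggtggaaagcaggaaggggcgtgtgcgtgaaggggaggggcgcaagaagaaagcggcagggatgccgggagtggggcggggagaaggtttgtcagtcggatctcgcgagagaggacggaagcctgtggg
Both strands were searched for the full CRE TGACGTCA, the CRE variant TGACATCA, the short CRE TGACG (which the full CRE contains) and the AP-1 element TGANTCA. The *Atf3* window held the short CRE on the other strand, from 7 to 3 bases before the start, and the *Jun* window held the CRE variant from 45 to 38 bases before the start. The *Atf2* window held none of the 4. All 10 genes had a RefSeq window, and 5 of them (*Atf1*, *Atf3*, *Fos*, *Fosb* and *Junb*) held the short CRE, which 20.8% of all 32851 windows hold. The CRE variant was in the *Jun* window alone of the 10 (3.62% of all windows). The full CRE and the AP-1 element were in none of the 10, and in 1.79% and 7.81% of all windows. The windows of *Junb* and *Jund* follow RefSeq starts that lie outside their GENCODE transcripts, so that these counts may miss the starts in use there. A match says only that the letters are there.

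The deposited values are counts of unique molecular identifiers (UMIs), random tags that let each captured cDNA be counted once at the 3′ end of its RNA, so that a level does not scale with the length of the gene. The libraries held from 81117 to 210588 UMIs, and levels are given as CPM, the UMIs of a gene per 1000000 UMIs of the library after TMM scaling over the 7665 genes that reached 10 UMIs in all. A single UMI was worth from 4.66 to 13.6 CPM, and a count of 0 allows a level of up to between 13.97 and 40.9 CPM (3 UMIs, counting error only). Together the 9 genes took from 23 to 159 UMIs per library (0.0284% to 0.0909% of all), so that counting error weighs on each of them. The shallowest library, Atf3 high replicate 2, goes against its female label, with 16 UMIs from *Ddx3y* and *Eif2s3y*, which lie on the Y chromosome, and 0 from *Xist*. Of 10 cardiomyocyte markers 9 had a row, and all 9 had UMIs in every library. Their summed level lay between 22103 and 43258 CPM in Atf3 high and between 44171 and 59557 CPM in Atf3 low, without overlap. By the edgeR fit all 9 were lower in Atf3 high, 1 past an adjusted p of 0.05 and 4 at an unadjusted one. Fibroblast markers (7 of 7 in the table, all higher) summed to between 1099 and 5188 CPM in Atf3 high and between 531 and 2574 CPM in Atf3 low, with 0 past the adjusted threshold and 3 at the unadjusted one. Mural markers (6 of 6, all higher, 0 past either threshold) summed to between 253 and 711 CPM and between 136 and 559 CPM. Macrophage markers (7 of 7, of which 6 were tested, 3 higher and 3 lower, 0 past either threshold) summed to between 158 and 346 CPM and between 229 and 334 CPM. Endothelial markers (6 of 6, 3 higher and 3 lower, 0 past either threshold) summed to between 990 and 1316 CPM and between 858 and 1388 CPM. In such areas fewer cells of a type and less RNA per cell cannot be told apart, and the part of cell composition in the differences below was not tested.

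The levels of the 9 genes, as mean CPM over the 6 libraries, ranged from 207 ± 138 for *Jund* to 2.68 ± 4.22 for *Fos* (SD, n = 6 libraries). Between these lay *Atf3* (133 ± 96.1), *Atf2* (102 ± 124), *Jun* (90.1 ± 66.5), *Atf1* (55.3 ± 28.8), *Atf7* (22.8 ± 22.4), *Junb* (16.5 ± 18.0) and *Fosl2* (8.07 ± 7.74). Neighbours in this order differed by less than the SD of the higher gene, other than *Atf1* and *Atf7*, which were 32.5 CPM apart against an SD of 28.8. *Jund*, *Jun* and *Atf1* had UMIs in all 6 libraries, *Atf3* and *Atf2* in 5, *Atf7*, *Junb* and *Fosl2* in 4, and *Fos* in 2.

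**Figure D1:**
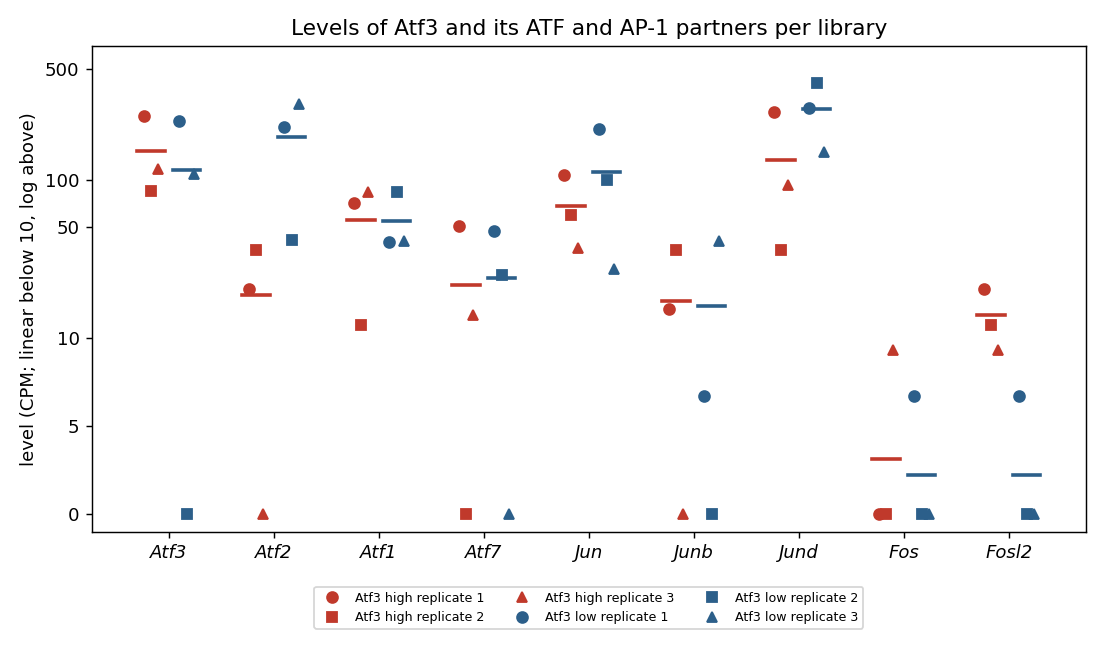
Level of each gene in CPM (linear below 10 and logarithmic above) in the 3 Atf3 high libraries (red) and the 3 Atf3 low libraries (blue), with a symbol per replicate and a line at the group mean. *Atf2* is the one gene among the 7 with at least 10 UMIs whose groups do not overlap, from 0 to 36.2 CPM against 41.7 to 299.6 CPM, and *Fos* and *Fosl2* lie near the level of a single UMI.

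*Atf3* (ENSMUSG00000026628) spans chr1:191170296-191218039 of GRCm38, on the minus strand. Its RNA stood at 254, 84.5 and 116 CPM in the Atf3 high libraries (replicates 1, 2 and 3, as in all such values) and at 236, 0 and 109 CPM in the Atf3 low libraries. Atf3 high replicate 1 lay above every Atf3 low library, replicate 3 above 2 of the 3 and replicate 2 above the library at 0 alone, so that the groups overlapped. In UMIs these levels rest on 50, 7 and 25 against 35, 0 and 8. The log2 fold change of Atf3 high over Atf3 low was 0.40 (SE 0.65) and it turned negative when Atf3 high replicate 1 (−0.19) or Atf3 low replicate 2 (−0.23) was left out. It rose to 1.65 without Atf3 low replicate 1, and it was 0.64 when the library that goes against its label was left out. The groups thus differed in the RNA of the protein they were selected on by less than the error of the estimate.

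Of the ATF partners, *Atf2* (ENSMUSG00000027104), a factor that stress kinases phosphorylate and that pairs with Jun, was lower in all Atf3 high libraries. It spans chr2:73816509-73892639, also on the minus strand. The Atf3 high libraries gave 4, 3 and 0 UMIs of *Atf2* (20.3, 36.2 and 0 CPM), and the Atf3 low libraries gave 32, 5 and 22 (216, 41.7 and 299.6 CPM). The gap between the groups is narrow in 1 place, where 3 UMIs of Atf3 high replicate 2 stand against 5 UMIs of Atf3 low replicate 2, and the other Atf3 low libraries stand far above. With library size scaling alone these libraries were at 37.0 and 39.8 CPM, still without overlap. Of the 66 *Atf2* UMIs, 59 came from Atf3 low. The mean level was 18.8 ± 18.1 CPM in Atf3 high and 186 ± 132 CPM in Atf3 low (SD, n = 3 libraries). The fitted log2 fold change was −3.48 (SE 0.81). Pooled by group, the level was 12.2-fold higher in Atf3 low (exact 95% interval 5.56 to 31.6, counting error only), and from 6.90-fold (without Atf3 high replicate 3) to 17.8-fold (without Atf3 high replicate 2) with a library left out. Libraries of a group differed by more than counting noise, so that this interval is too narrow for the difference between the groups. The fitted log2 fold change stayed between −4.11 and −2.75 with each library left out, and was −4.11 without Atf3 high replicate 2.

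*Atf1* (chr15:100227819-100261244, plus strand), a CREB relative activated by cAMP signals, was at 71.1, 12.1 and 83.8 CPM in Atf3 high and at 40.4, 83.4 and 40.9 CPM in Atf3 low. The groups overlapped, with a log2 fold change of 0.10 (SE 0.76), which was from −0.28 to 0.50 with each library left out and 0.47 without Atf3 high replicate 2. *Atf7* (chr15:102525946-102625464, minus strand), the close relative of *Atf2*, was at 50.8, 0 and 13.97 CPM in Atf3 high and at 47.2, 25.03 and 0 CPM in Atf3 low. Again the groups overlapped, and the log2 fold change was −0.14 (SE 1.10). Leaving out a library moved it from −1.46 (without Atf3 high replicate 1) to 0.66 (without Atf3 low replicate 1), and without Atf3 high replicate 2 it was 0.26. For both relatives of *Atf2* the groups overlapped, and whether their differences depart from that of *Atf2* was not tested. Summed over *Atf1*, *Atf2* and *Atf7*, the level was 142, 48.3 and 97.8 CPM in Atf3 high and 303, 150.2 and 340.5 CPM in Atf3 low. *Atf2* made up 4 of 28, 3 of 4 and 0 of 21 of these UMIs in Atf3 high and 32 of 45, 5 of 18 and 22 of 25 in Atf3 low, so that in shares the groups overlapped, through Atf3 high replicate 2 with its 4 UMIs and Atf3 low replicate 2.

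Set against each other within a library, *Atf3* and *Atf2* need no scaling for depth. *Atf3* held 50 of 54 of their joint UMIs in Atf3 high replicate 1 (92.6%, exact 95% interval 82.1% to 97.9%), 7 of 10 in replicate 2 (70.0%, 34.8% to 93.3%) and 25 of 25 in replicate 3 (100%, 86.3% to 100%). In Atf3 low it held 35 of 67 in replicate 1 (52.2%, 39.7% to 64.6%), 0 of 5 in replicate 2 (an upper limit of 52.2%) and 8 of 30 in replicate 3 (26.7%, 12.3% to 45.9%). Every Atf3 high library thus had a larger *Atf3* share than every Atf3 low library, though the intervals, which cover counting error only, of Atf3 high replicate 2 and each Atf3 low library overlapped. The share rests on the *Atf2* counts given above, which were already without overlap, whereas those of *Atf3* overlapped. It is therefore no separate result, and nothing further is read from it.

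**Figure D2:**
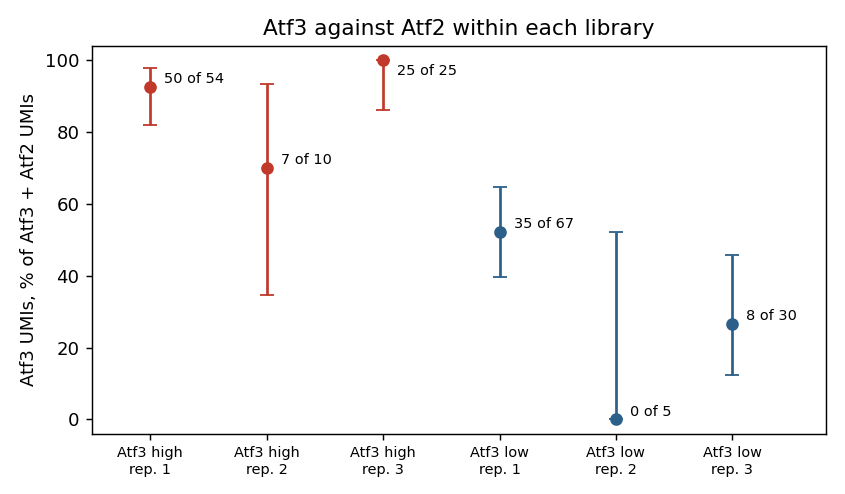
Share of *Atf3* in the UMIs of *Atf3* and *Atf2* together, in percent, for each of the 3 Atf3 high (red) and 3 Atf3 low (blue) libraries, with exact 95% binomial intervals and the counts beside each point. The Atf3 high libraries lie at 70.0% or more and the Atf3 low libraries at 52.2% or less. The shares restate the *Atf2* counts, whose groups did not overlap, and are no separate result.

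Of the Jun genes, which give AP-1 its common subunit, *Jund* and *Jun* had negative differences and *Junb* had too few UMIs to give a direction. *Jund* (chr8:70698949-70700616, plus strand), highest of the genes in mean level over all libraries and the Jun protein that is present in resting cells, was at 269, 36.2 and 93.2 CPM in Atf3 high and at 283, 409 and 149.8 CPM in Atf3 low. The lowest 2 libraries were Atf3 high replicates 2 and 3, while replicate 1 overlapped with Atf3 low. The log2 fold change was −1.02 (SE 0.53), it lay between −2.02 (without Atf3 high replicate 1) and −0.66 (without Atf3 high replicate 2) with each library left out, and it was −0.34 after thinning all libraries to 81117 UMIs. *Jun* (chr4:95049034-95052222, minus strand), the stress-inducible member that binds DNA with Atf2 or Fos, was at 107, 60.3 and 37.3 CPM in Atf3 high and at 209, 100.1 and 27.2 CPM in Atf3 low, and the groups overlapped. Its log2 fold change of −0.77 (SE 0.65) shrank to −0.01 without Atf3 low replicate 1, and reached −1.30 without Atf3 high replicate 1. Without Atf3 high replicate 2 it was −0.72.

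*Junb* (chr8:84974484-84978718, minus strand), often a weaker activator than Jun, gave 3, 3 and 0 UMIs from the Atf3 high and 1, 0 and 3 from the Atf3 low libraries, 10 in all and thus just at the minimum for the fit. Its log2 fold change was 0.12 (SE 1.47), and it could be fitted without a library only for Atf3 high replicate 3 (0.80) and Atf3 low replicate 2 (−0.58), since any other omission left fewer than 10 UMIs. The 3 Jun genes together stood at 391, 133 and 130.4 CPM in Atf3 high and at 499, 509 and 218 CPM in Atf3 low, again with overlap through replicate 1 of Atf3 high. *Jund* held between 27.3% (3 of 11 UMIs, Atf3 high replicate 2) and 80.3% (49 of 61, Atf3 low replicate 2) of their UMIs, and most of them in 5 of the 6 libraries.

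The Fos genes, whose proteins bind DNA only with a partner such as Jun, were barely detected. *Fos* (chr12:85473890-85477273, plus strand) had 3 UMIs in all, 2 of them in Atf3 high replicate 3 and 1 in Atf3 low replicate 1. *Fosl2* (chr5:32135801-32157842, plus strand) gave 4, 1 and 2 UMIs from the Atf3 high and 1, 0 and 0 from the Atf3 low libraries, 8 in all. Its groups did not overlap, but the nearest libraries, at 9.32 and 6.74 CPM, rest on 2 UMIs and 1 UMI. Both genes fell below 10 UMIs and were not fitted, with *Junb* (10 UMIs) and *Atf7* (23 UMIs) the genes nearest above the minimum. At this depth the 0 of *Fosl2* in Atf3 low replicate 3 allows up to 40.9 CPM, which is above all 3 levels in Atf3 high (20.3, 12.1 and 9.32 CPM), so that no difference in Fos genes was detectable. In the same libraries *Jund* and *Jun* were read at 178 and 79 UMIs.

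**Figure D3:**
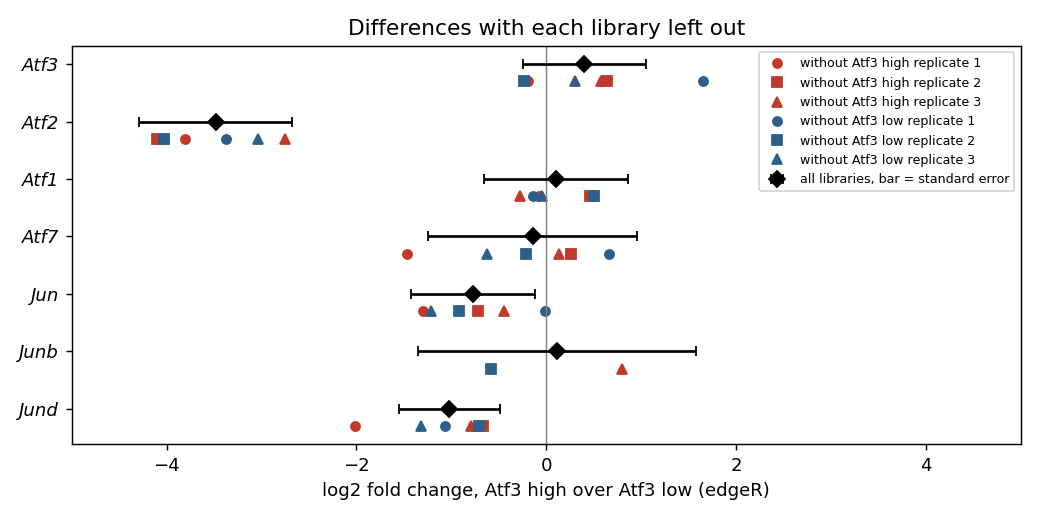
Log2 fold change of Atf3 high over Atf3 low for the 7 genes with at least 10 UMIs, from all libraries (black, bar for the SE) and with each library left out (colored symbols below, red for an omitted Atf3 high and blue for an omitted Atf3 low library). *Atf2* stays between −4.11 and −2.75, *Jund* between −2.02 and −0.66, and *Atf3*, *Atf1*, *Atf7* and *Junb* lie on both sides of 0.

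Counts of calls come from edgeR's quasi-likelihood test fitted to all 7665 genes, with Benjamini-Hochberg adjustment over them, and nothing is read from those of the 10 genes. At an adjusted p of 0.05, 0 of the 7 fitted genes were called, where 0.0913% of all genes were (7 genes). At an unadjusted p of 0.05, 1 of the 7 was called, *Atf2*, where 5.79% of all genes were, 3.55% higher and 2.24% lower in Atf3 high. Groups without overlap and lower in Atf3 high were found for 1 of the 7 genes and for 3.89% of all genes. The median log2 fold change of the 7 was −0.14, and that of all genes was 0.11, which library size scaling would move to 0.31. *Atf2*, with 7 UMIs in Atf3 high, reached the minimum of 10 UMIs only with those of Atf3 low, and nothing is read from its place among the fitted genes.

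How reads shared with other genes were assigned limits some of these values. Transcripts of *Atf7* and of the overlapping readthrough gene *Gm28047* are identical over 1285 bases, and an *Atf1* pseudogene (*Atf1-ps*) matches *Atf1* at 98.4% identity over 810 bases. *Atf2* shares 167 exonic bases with *Gm27421*, a short RNA gene on the same strand. None of these 3 had a row in the table. *Junb* shares 173 exonic bases with *Prdx2* on the opposite strand, and *Prdx2* gave 36, 3 and 40 UMIs from the Atf3 high and 27, 10 and 13 from the Atf3 low libraries. *Jun* and *Jund* overlap the antisense genes *Junos* (2 UMIs in all) and *Gm11175* (no row). Without a stated strand setting, reads of a gene and its antisense partner cannot be told apart. No other gene matched *Atf3*, *Atf2*, *Junb*, *Fos*, *Fosb* or *Fosl2* at 95% identity over 200 bases.

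The wider bZIP family, which holds further partners of these proteins, showed no shared direction. Of 36 other bZIP genes, 28 had a row and 20 were tested, of which 10 were higher and 10 lower, and their median log2 fold change was 0.01. None passed an adjusted p of 0.05 by edgeR's quasi-likelihood test (adjusted p from 0.964 to 0.996), with 0 at an unadjusted p of 0.05 and 0 after adjustment by DESeq2. DESeq2 left the adjusted p of 5201 of all 7665 genes unset. Such genes count as not called, here and in the lists below. The 3 with the most UMIs were *Nfe2l1*, a regulator of proteasome genes (log2 fold change −0.20, SE 0.46), *Atf4*, the main effector of the integrated stress response (0.48, SE 0.48), and *Atf6*, a sensor of the unfolded protein response (−0.94, SE 0.54). *Atf4* was at 285, 205 and 210 CPM in Atf3 high and at 175, 200 and 123 CPM in Atf3 low. These levels did not overlap between the groups, as was so, with higher levels in Atf3 high, for 7.07% of all genes, but its adjusted p was 0.996 (edgeR). *Atf5*, which acts in the mitochondrial stress response, had 142, 278 and 79.2 CPM in Atf3 high and 20.2, 66.7 and 149.8 CPM in Atf3 low (1.13, SE 0.64). *Nfe2l2*, the antioxidant regulator, was at −0.76 (SE 0.60). Other AP-1 proteins were at the edge of detection, with 3 UMIs of *Fosl1* and 6 of *Jdp2* in all libraries.

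Other immediate-early genes, induced by the same kinds of signal as *Atf3* and *Jun*, were also not called. Of 31 such genes 30 had a row and 27 were tested, of which 16 were higher and 11 lower, with a median log2 fold change of 0.12. By edgeR's quasi-likelihood test 0 passed an adjusted p of 0.05 (from 0.677 to 0.996), and DESeq2 called 0. At an unadjusted p of 0.05, 3.55% of all genes were higher and 2.24% lower, and of the 27 genes 3 were higher and 0 lower. These 3 were *Klf10*, a repressor induced by TGF-β, *Socs3*, an inhibitor of cytokine signals, and *Ccn2*, a matrix factor of fibrosis. *Klf10* was at 61.0, 24.1 and 116 CPM in Atf3 high and at 13.5, 8.34 and 13.6 CPM in Atf3 low, without overlap (log2 fold change 2.50, SE 0.97, adjusted p = 0.677, edgeR). Groups without overlap and higher in Atf3 high were found for 7.07% of all genes. *Socs3* gave 5, 2 and 3 UMIs from the Atf3 high libraries and 0 from each of the others. Its pooled level in Atf3 high was 2.30-fold that of 3 UMIs over the Atf3 low group. This ratio leaves out the counting error of the Atf3 high UMIs and is no lower limit. *Klf10*, with 4 UMIs in Atf3 low, and *Socs3* passed the minimum of 10 UMIs through Atf3 high alone, so that nothing is read from the count of 3. *Ccn2* was at 264, 374 and 135 CPM in Atf3 high and at 60.6, 184 and 81.7 CPM in Atf3 low (1.20, SE 0.54, adjusted p = 0.810, edgeR). The fibroblast markers were also higher in Atf3 high, as given above, and their part in this was not tested. The most abundant of the list, *Mcl1*, a survival factor, was at 0.09 (SE 0.43), and *Klf6* at 0.14 (SE 0.54).

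The kinases of the JNK, p38 and ERK cascades, which phosphorylate Jun and Atf2, were tested for 15 of 19 genes, with 8 higher, 7 lower and a median log2 fold change of 0.03. By edgeR's quasi-likelihood test 0 passed an adjusted p of 0.05 (from 0.792 to 0.996), and by DESeq2 0 were called. At an unadjusted p of 0.05 the edgeR test called 5.79% of all genes and 1 of the 15 kinases. This was *Mapk10*, the JNK isoform known best from brain and heart, whose UMIs numbered 0, 0 and 3 in the Atf3 high and 13, 2 and 2 in the Atf3 low libraries. Pooled by group, its level was 8.20-fold higher in Atf3 low (exact 95% interval 2.37 to 43.7, counting error only), and 3.41-fold (0.577 to 23.3) without Atf3 low replicate 1, which held 13 of its 17 UMIs there. Without Atf3 high replicate 1 it was 4.93-fold, and without Atf3 high replicate 3 that group had no UMI left to form a ratio. *Mapk10* passed the minimum of 10 UMIs through Atf3 low alone and was named for its small p. Nothing is therefore read from its difference or from the count of 1. *Mapk8*, the widely expressed JNK, was at 102, 72.4 and 46.6 CPM in Atf3 high and at 53.9, 16.7 and 13.6 CPM in Atf3 low (1.26, SE 0.82), and *Mapk12*, a p38 isoform of muscle, was at 1.95 (SE 1.16). Kinases among those with the most UMIs included *Mapkapk2*, a kinase downstream of p38, at −0.22 (SE 0.49) and *Map3k7*, an upstream kinase, at −0.94 (SE 0.67).

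**Figure D4:**
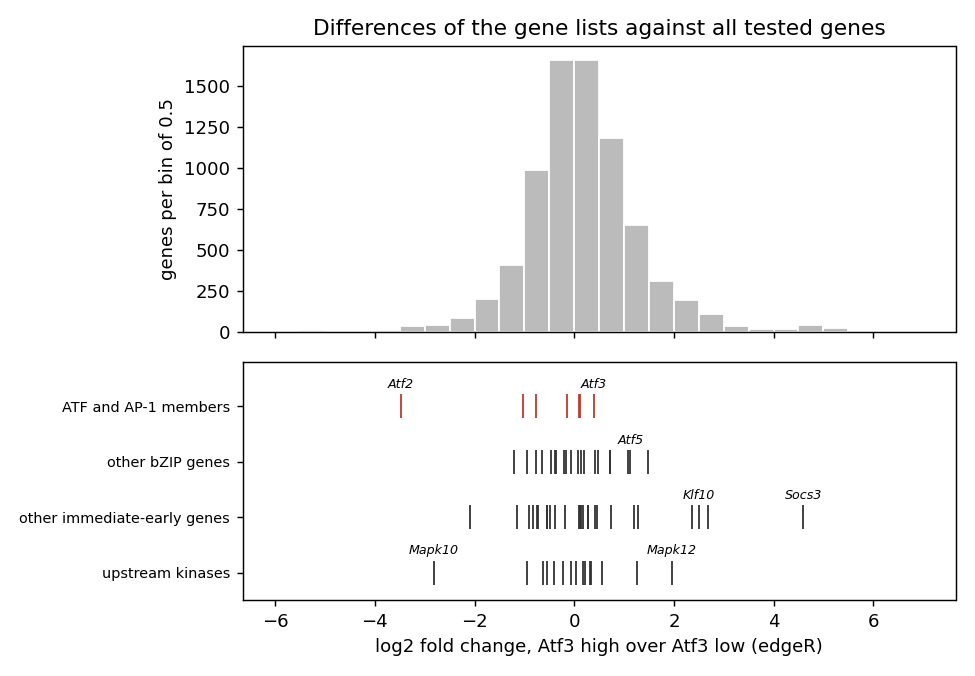
Log2 fold change of Atf3 high over Atf3 low for all 7665 tested genes (upper panel, number of genes per bin of 0.5) and for the gene lists (lower panel, 1 tick per gene: 7 ATF and AP-1 genes in red, then 20 other bZIP genes, 27 other immediate-early genes and 15 upstream kinases). *Atf2* is drawn at −3.48. It reached the minimum count only with the UMIs of Atf3 low and was chosen with its difference known. Nothing is therefore read from its place among all genes. Most of the other ticks lie within the body of the distribution.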

How the data were processed

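Per the labels, 6 libraries were made from FS6KD heart sections by photo-isolation chemistry and CEL-seq2. The authors mapped reads to GRCm38 with HISAT2 (version 2.1.0), the submitters' processing notes also name UMI-tools (version 1.0.0) and featureCounts (version 1.6.4), and what the authors deposited is a table of raw UMI counts. The annotation, the strand setting and the handling of reads with several matches were not given in the sources used here.
Groups follow the labels. The 7665 genes that reached 10 UMIs over the 6 libraries were scaled by TMM and fitted with edgeR (version 4.0.16) in R (version 4.3.3), by the quasi-likelihood test without covariates. CPM use these scaled library sizes. The fit was tested on simulated data. DESeq2 (version 1.42.0), other scalings and filters, a replicate block, thinning and leaving out each library were the alternatives. Every gene of the list, and in the other lists the 3 genes with most UMIs and the 3 of smallest p, were named, as were the 5 genes most like *Atf3*, except 1 gene that is not reported here. *Fosl1*, *Jdp2* and the overlap partners were named after their values were seen. The 10 genes and the lists were chosen with earlier results of these data known. Positions are from GENCODE M21, and copies were searched with BLAST+ (version 2.17.0). Libraries of a group differed by more than counting noise (a chi-square of 3.55 to 5.07 for each degree of freedom), and the study gives them as biological replicates.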

Additional observations from a re-analysis of the deposited data

How the results depend on the processing

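With each alternative, 0 of the other bZIP, immediate-early and kinase genes passed an adjusted p of 0.05. At an unadjusted p of 0.05 their counts ranged over the alternatives from 0 to 2 (bZIP), 0 to 4 (immediate-early) and 0 to 2 (kinases). The number of the 7 ATF and AP-1 genes called was 0, and became 1 (*Atf2* each time) with DESeq2, without a filter and with the replicate block, which adds no support since *Atf2* was chosen with its difference known, and ranged from 0 to 1 (without Atf3 low replicate 2) with each library left out. edgeR's filterByExpr left 4 of the 7 genes and not *Atf2*. Deviations of same-numbered libraries from their group means were little correlated (0.09, 0.00088 and 0.07). With few UMIs for many genes, this cannot show whether such libraries came from the same heart. The replicate block changed the *Atf2* estimate to −3.45. Over all genes, 7 calls became 12 with DESeq2, 24 with the block and from 0 (without Atf3 low replicate 1) to 11 (without Atf3 high replicate 3) with a library left out, and 444 genes at an unadjusted p of 0.05 became 249 with DESeq2 (which left the adjusted p of 5201 genes unset), 119 of 1988 tested with filterByExpr, 514 with library size scaling and 623 of 17145 without a filter. Each of 83 alternative log2 fold changes of the 7 genes moved by less than the SD between replicates of its gene on log2(CPM + 4), which is wide (1.04 for *Atf1* to 2.29 for *Atf3*). Some moved by more than the SE, and the sign changed under 2 alternatives for *Atf3*, 4 for *Atf1*, 4 for *Atf7* and 1 for *Junb*. The summed Jun genes (−0.90 as the log2 ratio of group means) ranged from −1.63 to −0.64, and the summed *Atf1*, *Atf2* and *Atf7* (−1.46) from −1.86 to −1.14, with each library left out. No ratio was formed for the Fos genes, with 2 UMIs in Atf3 low. The causes of these changes were not tested, and depth, at up to 13.6 CPM per UMI, limits every value below about 40.9 CPM.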

Other observations

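Among 1876 genes with at least 60 UMIs, those whose levels followed the levels of *Atf3* most closely over the 6 libraries, by Pearson correlation of log2(CPM + 4), included *Ctsb* (0.97), *Cct5* (0.97), *Ppp2r2a* (0.97) and *Ppp1ccb* (0.96). *Ctsb* encodes a lysosomal protease, *Cct5* a subunit of the cytosolic chaperonin and *Ppp2r2a* a regulatory subunit of a protein phosphatase. These values are a description over libraries that share their depth and scaling, and the genes were picked as the highest of many. *Atf3* had no UMI in Atf3 low replicate 2, and the same library held the fewest UMIs of each of these 4 genes, such as 0 of *Ppp2r2a* and 5 of *Cct5*. Without it, over 5 libraries, the correlations were 0.62 for *Ctsb*, 0.88 for *Cct5*, 0.49 for *Ppp2r2a* and 0.56 for *Ppp1ccb*.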
